A study of Mus musculus with 12 samples.

Results

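Mouse optic nerves exposed to oxygen-glucose deprivation (OGD) with the drug CX-4945 were compared with nerves exposed to OGD alone, which asks what the drug adds to the deprivation. The comparison used 6 of the 12 samples measured, 3 per group, chosen by the agent named in the labels. OGD+CX-4945 nerves received the deprivation and the drug, and OGD nerves the deprivation with no drug named, so both groups share the deprivation. The other 6 samples, 3 with OGD+MS-275 and 3 Control, entered the fit that estimates the spread. All came from isolated optic nerve of male C57Bl/6 mice, with no transgene or deletion named. Dose, length of exposure, age, and how many nerves or animals make up a sample were not stated in the sources used here. Nothing says that the samples of a group came from separate animals, so the p-values measure only the spread between these samples, which may be technical. An isolated nerve keeps axons, glia and vessels but not the cell bodies of the retinal neurons.

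A microRNA (miRNA) is a short RNA that guides an Argonaute protein to messenger RNAs and lowers their output. It finds them mainly through its seed, a stretch near its 5′ end, and miRNAs that share a seed form a family with overlapping targets. Each precursor hairpin gives a 5p and a 3p arm. OGD withholds oxygen and glucose together and serves as a laboratory model of ischaemia. CX-4945, also called silmitasertib, blocks casein kinase 2 (CK2), a kinase with very many substrates. In this nerve oligodendrocytes make the myelin, and miR-219 and miR-338-3p promote their maturation.

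The mature sequences that follow belong to 3 sets: miRNAs whose OGD+CX-4945 and OGD samples did not overlap, imprinted miRNAs and miR-221 with their highest value in OGD+CX-4945 replicate 2, and partners that show a shared seed. They come from RefSeq on build GRCm38.p6 and are written 5′ to 3′, with the seed (bases 2 to 8) in capitals. The panel names many miRNAs without an arm, and for those the arm in current use was assigned by hand.
miR-423-5p: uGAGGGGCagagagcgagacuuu
miR-423-3p: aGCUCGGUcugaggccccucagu
let-7c-5p: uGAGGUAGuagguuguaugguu
let-7g-5p: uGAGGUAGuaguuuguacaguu
miR-410-3p: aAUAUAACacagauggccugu
miR-369-3p: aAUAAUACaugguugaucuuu
miR-434-5p: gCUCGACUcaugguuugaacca
miR-127-3p: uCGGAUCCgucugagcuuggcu
miR-376a-3p: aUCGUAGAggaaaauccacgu
miR-376b-3p: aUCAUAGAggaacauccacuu
miR-362-3p: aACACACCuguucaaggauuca
miR-329-3p: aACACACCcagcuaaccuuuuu
miR-33-5p: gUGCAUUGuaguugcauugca
miR-191-5p: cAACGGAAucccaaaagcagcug
miR-19a-3p: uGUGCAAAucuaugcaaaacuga
miR-27a-3p: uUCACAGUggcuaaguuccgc
miR-27b-3p: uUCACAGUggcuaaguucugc
miR-221-3p: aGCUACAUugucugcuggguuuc

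let-7c and let-7g carry one seed, miR-27a and miR-27b another, and miR-362-3p shares its seed with the imprinted miR-329. On chromosome 12, miR-127-3p lies at chr12:109592888-109592909 on the plus strand and miR-410-3p at chr12:109743764-109743784, both in the Dlk1-Dio3 region. miR-362-3p lies on the minus strand at chrX:7241984-7242005, within Clcn5. On chromosome 11, miR-423-5p lies at chr11:77078122-77078144 and miR-423-3p at chr11:77078086-77078108. A RefSeq mature sequence was matched to 143 of the 217 tested probes.

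The nCounter panel counts fluorescent barcodes without amplification. Of its 566 mouse miRNA probes, 217 exceeded a lane's background limit (negative-control mean plus 2 SD) in at least 3 of the 12 lanes and were tested. Of these, 150 were above it in all 6 lanes compared and 0 were above it in none. The total miRNA count was 369903, 358905 and 542399 in the OGD+CX-4945 lanes and 416083, 254692 and 360511 in the OGD lanes, and 175, 204 and 211 against 191, 154 and 192 probes were above the limit. The positive ligation controls, a readout of how completely tags were attached in a lane, had geometric means of 1667, 2793 and 3787 counts with OGD+CX-4945 and 1751, 1109 and 2423 with OGD. That difference had p = 0.3 in an exact two-sided permutation test, where 3 samples against 3 allow no p below 0.10, and an adjusted p of 1.0 over 6 lane measures. Myelin-lineage miRNAs marked the labelled tissue, with miR-338-3p at rank 4 and miR-219 at rank 10 by mean count. The values below are TMM-scaled counts, called normalised counts.

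No miRNA passed the test between OGD+CX-4945 and OGD. At a Benjamini-Hochberg adjusted p under 0.05, edgeR called 0 of 217 probes (0%; lowest adjusted p = 0.448), and DESeq2 and limma-voom also called 0. edgeR gave 16 probes an unadjusted p under 0.05 (7.37% of those tested), against 14 in DESeq2 and 14 in limma-voom. Of the 16, 11 had a higher mean with CX-4945 (5.07%) and 5 a lower mean (2.3%). The 3 drug-treated samples all lay above the 3 OGD samples for 10 probes (4.61%) and all below them for 4 (1.84%). Lack of overlap is a description, as 3 samples against 3 allow no p below 0.10 in an exact two-sided permutation test. Most differences were small. The mean was higher with CX-4945 for 118 probes and lower for 99, the median log2 fold change was 0.03, and the 95% interval lay within a 2-fold change for 205 probes. In a whole nerve, fewer cells of a type and less RNA per cell cannot be told apart. Single samples set the count of 16: leaving out OGD+CX-4945 replicate 2 gave 5, and leaving out replicate 1 of that group gave 31. Dropping an OGD sample gave 10, 6 and 24 for replicates 1, 2 and 3.

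**Figure D1:**
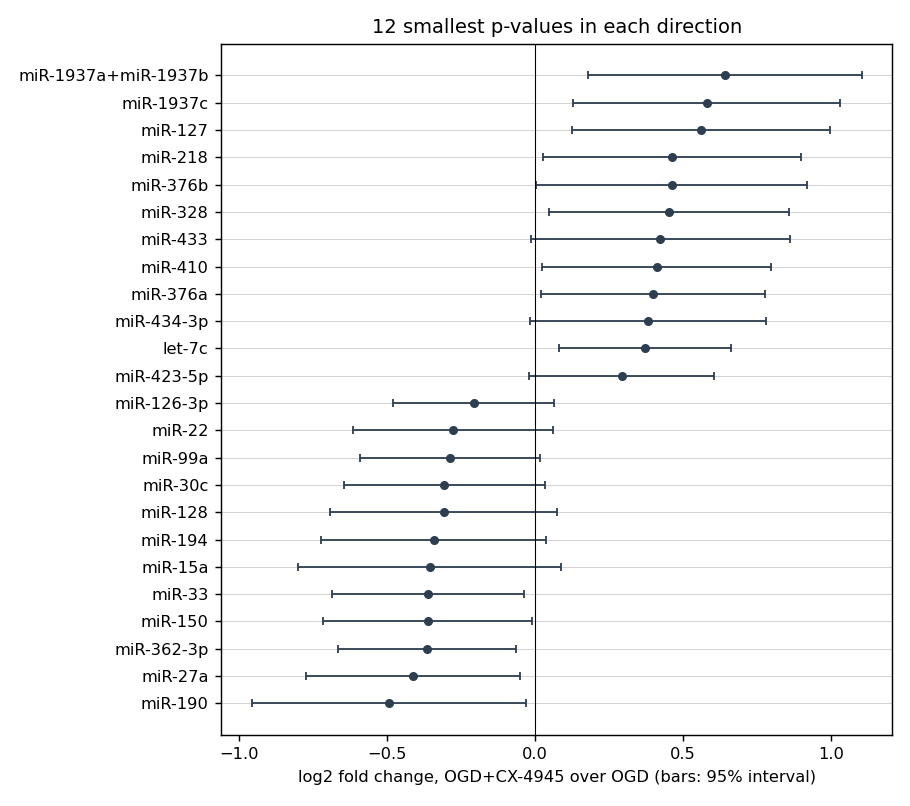
Log2 fold changes of the miRNAs with the smallest p-values. The x axis is the log2 fold change of OGD+CX-4945 over OGD, with a point and a 95% interval for each of the 12 miRNAs with the smallest unadjusted p in each direction, among those above background in all 3 samples of the higher group. Points run from 0.64 for miR-1937a+miR-1937b to -0.49 for miR-190, and the intervals of 10 of these miRNAs cross 0.

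The scaling of the lanes sets the direction of many of these values. The median of all tested probes was 0.03 with TMM, -0.26 with lanes scaled by the ligation controls, 0.26 by the mRNA probes, 0.39 by the positive controls, and 0.49 in the authors' processed values. In the same order, 118, 34, 199, 210 and 214 of the 217 tested probes had a higher mean with CX-4945. At an unadjusted p under 0.05, higher and lower probes numbered 11 and 5 with TMM, 12 and 3 with the total count, 8 and 6 with RLE factors, and 1 and 4 with the ligation controls. They numbered 6 and 0 with the mRNA probes, 16 and 0 with the positive controls, and 7 and 0 in the processed values. Probes whose groups did not overlap, 10 higher and 4 lower with TMM, numbered 12 and 6 with the total count, 8 and 6 with RLE factors, 1 and 7 with the ligation controls, 5 and 0 with the mRNA probes, and 12 and 0 with the positive controls. The miRNAs featured below for lack of overlap are those under TMM. Each fold change below is therefore relative to the typical probe under TMM.

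Both arms of miR-423 were higher in each OGD+CX-4945 sample than in any OGD sample. miR-423-5p had 93.0, 99.7 and 98.9 normalised counts in the 3 OGD+CX-4945 samples, against 77.4, 76.7 and 83.8 in the 3 OGD samples. The drug-treated samples lay close together and above each OGD sample (log2 fold change 0.29, SE 0.15, 95% interval -0.02 to 0.60). miR-423-3p had 68.7, 85.7 and 74.9 normalised counts in the 3 OGD+CX-4945 samples, against 62.7, 48.5 and 65.8 in the 3 OGD samples (log2 fold change 0.36, SE 0.20, 95% interval -0.07 to 0.78). The gap of the 3p arm was narrow. Each arm had raw counts above the background limit in 3 of 3 OGD+CX-4945 lanes and 2 of 3 OGD lanes. Both arms were tested for 13 hairpins, and in 8 the arms had fold changes of one sign. miR-129, whose arms are both used in neurons, had log2 fold changes of 0.32 for the 3p and 0.31 for the 5p arm (SE 0.21 and 0.21), with overlapping groups. miR-151 was among those whose arms differed in sign. Its 3p arm had 128, 119.6 and 111 with CX-4945, against 109, 109.5 and 123 in OGD, and its 5p arm 6523, 5236 and 6578 with CX-4945, against 6887, 7447 and 6541 in OGD.

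let-7c, from a family known for holding cells in a differentiated state, was the most abundant miRNA whose groups did not overlap. It had 11326, 13155 and 13520.1 normalised counts in the 3 OGD+CX-4945 samples, against 10447, 8140.5 and 10809 in the 3 OGD samples. All 3 drug-treated samples were the higher ones (log2 fold change 0.37, SE 0.14, 95% interval 0.08 to 0.66; edgeR adjusted p = 0.628). let-7g, the most abundant member, had 21768, 18677 and 23264 normalised counts in the 3 OGD+CX-4945 samples, against 21098, 22406 and 21896 in the 3 OGD samples. Its groups overlapped (log2 fold change -0.04, SE 0.10). All 9 let-7 list probes were tested, 6 had a higher mean with CX-4945, and their median was 0.09 against 0.03 over all probes; under ligation scaling 2 of 9 did, with medians of -0.18 and -0.26. The seed GAGGUAG was carried by 10 tested probes, the 9 family members and miR-1961, of which 7 had a higher mean. Members differ by few bases and can share signal in hybridisation.

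**Figure D2:**
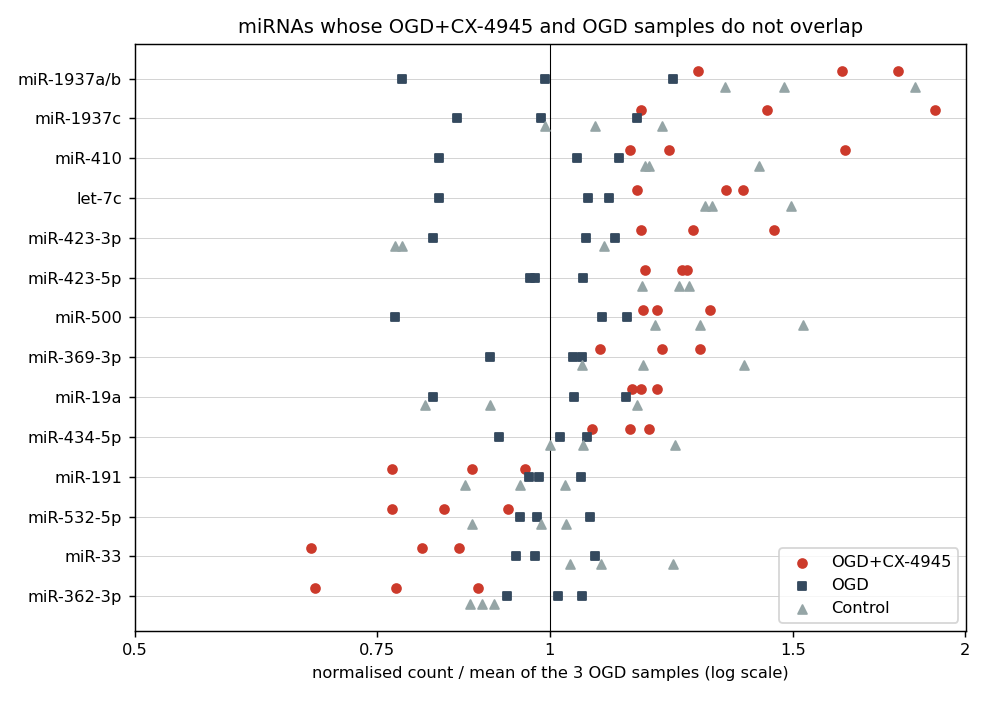
Samples of the 14 miRNAs whose OGD+CX-4945 and OGD samples did not overlap. Each point is 1 sample, placed on a log axis by its normalised count divided by the mean of the 3 OGD samples, with OGD+CX-4945 circles above OGD squares and Control triangles in each row. The circles lie right of every square in 10 rows and left of every square in 4.

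Control samples set these values in context, and the OGD samples are shared by both comparisons. let-7c had 11326, 13155 and 13520.1 normalised counts with CX-4945, 10447, 8140.5 and 10809 in OGD and 12843, 14650.5 and 12686 in Control. miR-1937a+miR-1937b had 724, 659 and 518 normalised counts with CX-4945, 401, 316 and 496 in OGD and 542, 598 and 744 in Control. In both, the OGD mean was the lowest of these 3 group means. miR-33 had 185, 145 and 174 normalised counts with CX-4945, 232, 203 and 210.0 in OGD and 223, 234 and 264 in Control, so here the drug-treated group had the lowest mean. For miR-423-3p the Control samples read 45.6, 64.5 and 46.1, and OGD and Control overlapped.

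miRNAs of the imprinted Dlk1-Dio3 region, expressed from the maternal chromosome, mostly had higher means with CX-4945 under TMM (24 of 28 tested). Under ligation scaling fewer did, though a larger share than the 34 of all 217 tested probes. OGD+CX-4945 replicate 2 held the highest of the 6 values for 24 of the 28. In the miR-379/miR-410 group 22 of 38 panel probes were tested, 20 had a higher mean, and the median log2 fold change was 0.28. In the Rtl1-antisense group 6 of 19 were tested, 4 had a higher mean, and the median was 0.28. Of these 6, 5 lie within Rtl1 and miR-770-3p lies outside it, at a lower coordinate on the chromosome. By sample, the median log2 deviation of the miR-379/miR-410 probes from their OGD mean was 0.17, 0.68 and -0.01 with CX-4945 and 0.09, 0.03 and -0.09 in OGD. Among the 6 samples compared, OGD+CX-4945 replicate 2 thus stood apart, while replicate 3 of that group lay within the OGD range. Over all tested probes, its log2 normalised counts, those of OGD+CX-4945 replicate 2, correlated at 0.9933, 0.9828 and 0.9923 with OGD+MS-275 replicates 1, 2 and 3. They correlated at 0.9835 and 0.9847 with OGD+CX-4945 replicates 1 and 3, and at 0.983, 0.9771 and 0.9848 with the OGD samples. OGD+CX-4945 replicate 2 held the highest of the 6 values for 21 of the 22 miR-379/miR-410 probes, against 58 of all 217 (26.7%). The miR-379/miR-410 median was 0.09 without it. Scaled by the ligation controls, 10 of the 22 had a higher mean and the median was -0.02, where that of all probes was -0.26, and with ligation as a covariate it was 0.32. For the Rtl1-antisense probes the deviations were 0.20, 0.47 and 0.10 and 0.05, -0.01 and -0.05 in the same order, and the median without replicate 2 was 0.19. Replicate 2 held the highest of the 6 values for 3 of these 6 probes. Under ligation scaling 3 of the 6 had a higher mean with a median of -0.02, and with ligation as a covariate all 6 did with a median of 0.29.

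miR-410 had 392.0, 561 and 418 normalised counts in the 3 OGD+CX-4945 samples, against 359, 285 and 385 in the 3 OGD samples. The groups did not overlap, though replicate 1 lay just above the highest OGD sample (log2 fold change 0.41, SE 0.18, 95% interval 0.02 to 0.80). miR-369-3p had 862, 1019.5 and 957 normalised counts in the 3 OGD+CX-4945 samples, against 825, 718 and 837 in the 3 OGD samples, again with no overlap (log2 fold change 0.25, SE 0.15), whereas its partner arm miR-369-5p had 43.3, 50.8 and 36.7 with CX-4945, against 40.6, 46.9 and 38.2 in OGD and overlapped, with 1 OGD+CX-4945 lane and 0 OGD lanes above background. miR-376a had 256, 361 and 271 with CX-4945, against 273, 178 and 218 in OGD, and miR-376b had 317, 581 and 383 with CX-4945, against 292, 283 and 354 in OGD. In both, replicate 2 was the highest sample and the groups overlapped (log2 fold change 0.40, SE 0.18 for miR-376a; log2 fold change 0.46, SE 0.22 for miR-376b).

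miR-127, which is antisense to Rtl1 and can cleave its transcript, had 210.2, 356 and 249 normalised counts in the 3 OGD+CX-4945 samples, against 161, 175 and 215 in the 3 OGD samples (log2 fold change 0.56, SE 0.21). Replicate 2 was the highest sample, and replicate 1 lay below the highest OGD sample. The 5p arm of miR-434 had 82.4, 79.7 and 74.9 with CX-4945, against 71.0, 64.2 and 74.2 in OGD, with no overlap (log2 fold change 0.17, SE 0.15) and 2 of 3 OGD lanes above background, and the 3p arm had 750.1, 1115 and 1040.3 with CX-4945, against 775, 610.3 and 844 in OGD, with overlap (log2 fold change 0.38, SE 0.19). miR-433 had 481, 657 and 409 with CX-4945, against 428, 389.7 and 334 in OGD and overlapped. miR-136, the most abundant tested probe of this group, had a lower mean under TMM, with 2882, 2778 and 1803 with CX-4945, against 2899, 3607 and 2280.2 in OGD (log2 fold change -0.24, SE 0.21). Replicate 3 was its lowest sample and the groups overlapped. Its slope on the ligation count was -0.54 (edgeR adjusted p = 0.019), and with ligation as a covariate its mean was higher with CX-4945.

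**Figure D3:**
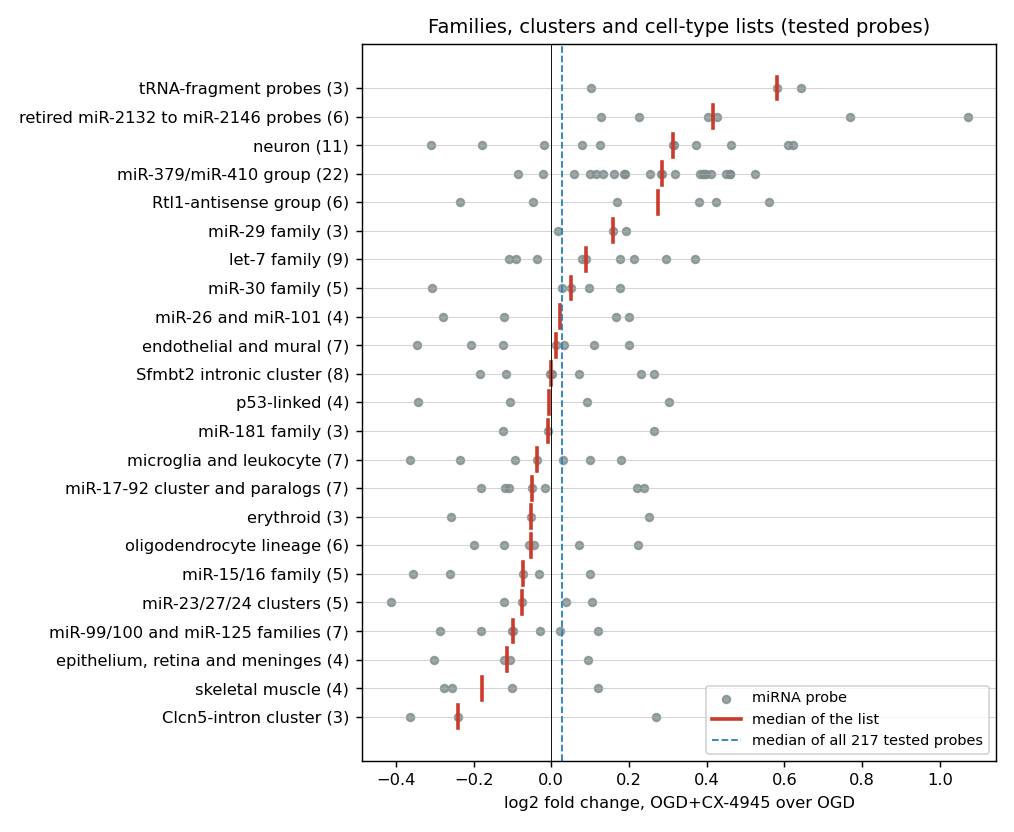
Log2 fold changes by miRNA list. Each row is a list with its number of tested probes, each grey point is the log2 fold change of 1 probe (OGD+CX-4945 over OGD), the red bar is the list's median and the dashed line the median of all tested probes. Medians run from 0.58 for the tRNA-fragment probes to -0.24 for the Clcn5-intron cluster.

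The miRNAs lower in each OGD+CX-4945 sample than in any OGD sample were miR-362-3p, miR-33, miR-191 and miR-532-5p. miR-362-3p had 159.5, 122 and 139 normalised counts in the 3 OGD+CX-4945 samples, against 182, 167 and 189.8 in the 3 OGD samples (log2 fold change -0.36, SE 0.14, 95% interval -0.67 to -0.06). miR-33 is encoded within a gene for a sterol-regulated transcription factor and is known to lower cholesterol efflux. It had 185, 145 and 174 normalised counts in the 3 OGD+CX-4945 samples, against 232, 203 and 210.0 in the 3 OGD samples (log2 fold change -0.36, SE 0.15, 95% interval -0.69 to -0.04). In both, replicate 2 was the lowest sample. miR-532-5p had 479, 395 and 430.1 normalised counts in the 3 OGD+CX-4945 samples, against 502, 549 and 489 in the 3 OGD samples (log2 fold change -0.24, SE 0.15), and miR-191 had 420.5, 337 and 385 normalised counts in the 3 OGD+CX-4945 samples, against 462, 430.3 and 423 in the 3 OGD samples (log2 fold change -0.20, SE 0.14). The groups of miR-191 lay nearly edge to edge. The fold changes of miR-532-5p and miR-191 turned positive with lanes scaled by the mRNA probes or the positive controls, and those of all 4 turned positive in the authors' processed values. Those settings gave a higher mean for 199, 210 and 214 of all 217 tested probes, in the same order.

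miR-362-3p and miR-532-5p are encoded with miR-500 in an intronic cluster of the X-linked chloride channel gene Clcn5. Of 9 cluster probes on the panel 3 were tested, and in all 3 the groups did not overlap, although not in one direction; over all tested probes the groups did not overlap for 10 higher (4.61%) and 4 lower (1.84%). miR-500 had 58.1, 56.8 and 63.6 normalised counts in the 3 OGD+CX-4945 samples, against 55.3, 37.6 and 53.03 in the 3 OGD samples (log2 fold change 0.27, SE 0.21). Its samples were higher with CX-4945, with raw counts above the limit in 2 of 3 OGD+CX-4945 lanes and 2 of 3 OGD lanes, and its fold change turned to -0.01 under ligation scaling. The median of the 3 was -0.24, and it was 0.01 under mRNA-probe scaling, 0.12 under positive-control scaling and 0.14 in the processed values. miR-329, which shares the seed of miR-362-3p, had a log2 fold change of 0.13.

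Among seed families, 19 seeds were shared by 2 or more tested probes with a matched sequence, 55 probes in all. miR-27a, of the miR-23/27/24 clusters, had 7670.4, 5247 and 5723 normalised counts in the 3 OGD+CX-4945 samples, against 7722, 10273 and 6833 in the 3 OGD samples (log2 fold change -0.41, SE 0.17, 95% interval -0.77 to -0.05). OGD replicate 2 was its highest sample and the groups overlapped. With the ligation count as a covariate its slope was -0.46 log2 units per doubling of the ligation count (edgeR adjusted p = 0.007), and OGD replicate 2 had the lowest ligation count. With that covariate its log2 fold change was -0.11. The part of ligation in the difference of miR-27a was not tested. miR-27b, with the same seed UCACAGU, also had a lower mean. All 4 matched probes with seed AGCAGCA (miR-15a, miR-15b, miR-16 and miR-322) had lower means, with a median of -0.17. The same held for all 3 with seed AUUGCAC (miR-25, miR-32 and miR-92b), with a median of -0.14. miR-195, of the miR-15/16 family but without a matched sequence, had a log2 fold change of 0.10. That family's list had 1 of 5 higher and a median of -0.07. Signs of the 7 matched probes depended on the scaling. With the mRNA probes 2 of the 4 and all 3 had higher means, and in the processed values all 7 did. Over all 217 tested probes, 199 had a higher mean with the mRNA probes and 214 in the processed values. The 3 miR-29 probes all had higher means, though none of the 3 did under ligation scaling or with the ligation covariate, and miR-29c had 2883, 4443 and 4594 with CX-4945, against 3034, 2976 and 4419 in OGD. miR-29c overlapped between groups, as the OGD replicate 3 was high too. None of these members passed the test. Medians of other families under TMM were 0.05 for miR-30 (4 of 5 higher), -0.01 for miR-181 (1 of 3), -0.10 for miR-99/100 with miR-125 (2 of 7), 0.02 for miR-26 with miR-101 (2 of 4), -0.05 for miR-17-92 and its paralogs (2 of 7) and 0.09 for miR-103 with miR-107 (2 of 2). Of the 8 tested probes of the Sfmbt2 intronic cluster, 4 had a higher mean. Under ligation scaling no tested member of these 7 lists had a higher mean, where only 34 of all 217 tested probes did.

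miR-19a, of the miR-17-92 cluster, had 270.5, 266 and 278 normalised counts in the 3 OGD+CX-4945 samples, against 264, 191 and 242 in the 3 OGD samples (log2 fold change 0.22, SE 0.18). The drug-treated samples were close together and did not overlap OGD, whose replicate 2 was low. miR-221 had 51.8, 82.7 and 53.7 normalised counts in the 3 OGD+CX-4945 samples, against 52.5, 43.8 and 35.00 in the 3 OGD samples (log2 fold change 0.50, SE 0.22, 95% interval 0.05 to 0.96), with replicate 2 highest and the groups overlapping. Its raw count was above the background limit in 2 of 3 OGD+CX-4945 lanes and 1 of 3 OGD lanes. miR-21, a much studied miRNA of injury and growth, had 1389, 1618 and 2002 with CX-4945, against 1642, 1421 and 2054 in OGD and overlapped (log2 fold change -0.03, SE 0.21). On the list of miRNAs that target CK2 subunits, 0 of 4 were tested, and no raw count in the 6 lanes exceeded 49.

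miR-218, miR-328, miR-190 and miR-150, each with an unadjusted p under 0.05, had overlapping groups. miR-218, abundant in motor neurons, had 579, 879 and 476 normalised counts in the 3 OGD+CX-4945 samples, against 529.9, 430.3 and 440.1 in the 3 OGD samples (log2 fold change 0.46, SE 0.21). Replicate 2 was the highest by far. miR-328 had 157, 223 and 162 with CX-4945, against 121, 102 and 171 in OGD (log2 fold change 0.45, SE 0.19), and miR-190 had 264, 243 and 349.6 with CX-4945, against 319.8, 441 and 451 in OGD (log2 fold change -0.49, SE 0.22). miR-150, a miRNA of mature lymphocytes, had 2116, 1660.4 and 1629 with CX-4945, against 2325, 2687 and 1938 in OGD (log2 fold change -0.36, SE 0.17), and its slope on the ligation count had an adjusted p of 0.026; with the covariate its log2 fold change was -0.12. For 11 of the 16 probes, the highest or lowest of the 6 values was that of OGD+CX-4945 replicate 2. The matching count over all tested probes was not made, and the 16 were picked by p in the same comparison. The 11 of 16 is therefore only a description.

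The tRNA-fragment probes, named miR-720, miR-1937a+miR-1937b and miR-1937c before their sequences were recognised as pieces of transfer RNA, all had higher means with CX-4945 (median log2 fold change 0.58). miR-1937a+miR-1937b had 724, 659 and 518 normalised counts in the 3 OGD+CX-4945 samples, against 401, 316 and 496 in the 3 OGD samples (log2 fold change 0.64, SE 0.22, 95% interval 0.18 to 1.10; edgeR adjusted p = 0.628). miR-1937c had 528, 399 and 323 normalised counts in the 3 OGD+CX-4945 samples, against 274, 238 and 321 in the 3 OGD samples (log2 fold change 0.58, SE 0.21, 95% interval 0.13 to 1.03). The groups did not overlap in either, and replicate 1 was the highest sample of both. The abundant miR-720 had 27451, 17655 and 16297 with CX-4945, against 16912, 22367 and 17876 in OGD and overlapped (log2 fold change 0.10, SE 0.18). The median log2 deviation of the 3 probes was 0.86, 0.53 and 0.23 with CX-4945 and -0.01, -0.21 and 0.22 in OGD. The OGD+CX-4945 lane with the lowest ligation count had the highest of these values. The list's median was 0.38 under ligation scaling, the lowest of the scalings tried, and 0.56 with ligation as a covariate.

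The retired probes between miR-2132 and miR-2146 also had higher means, in all 6 tested of 12, with a median of 0.42. miR-2141 had 386, 1022 and 1209.8 normalised counts in the 3 OGD+CX-4945 samples, against 419, 473 and 646 in the 3 OGD samples (log2 fold change 0.77, SE 0.38). Replicates 2 and 3 were high, and replicate 1 was below each OGD sample. miR-2133 had 30.6, 66.8 and 71.3 with CX-4945, against 22.1, 26.6 and 32.9 in OGD, with 2 of 3 OGD+CX-4945 lanes and 0 of 3 OGD lanes above the background limit, so its OGD values are not above background. It was the probe called without OGD+CX-4945 replicate 1, with a log2 fold change of 1.35 and an edgeR adjusted p of 0.00698, against 0.448 with all samples. The list's median deviation was -0.44, 0.83 and 1.05 with CX-4945 and -0.27, -0.15 and 0.45 in OGD, and the ligation counts of those lanes were 1667, 2793 and 3787 with CX-4945 and 1751, 1109 and 2423 in OGD. With ligation as a covariate 2 of the 6 had a higher mean and the list's median was -0.05.

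**Figure D4:**
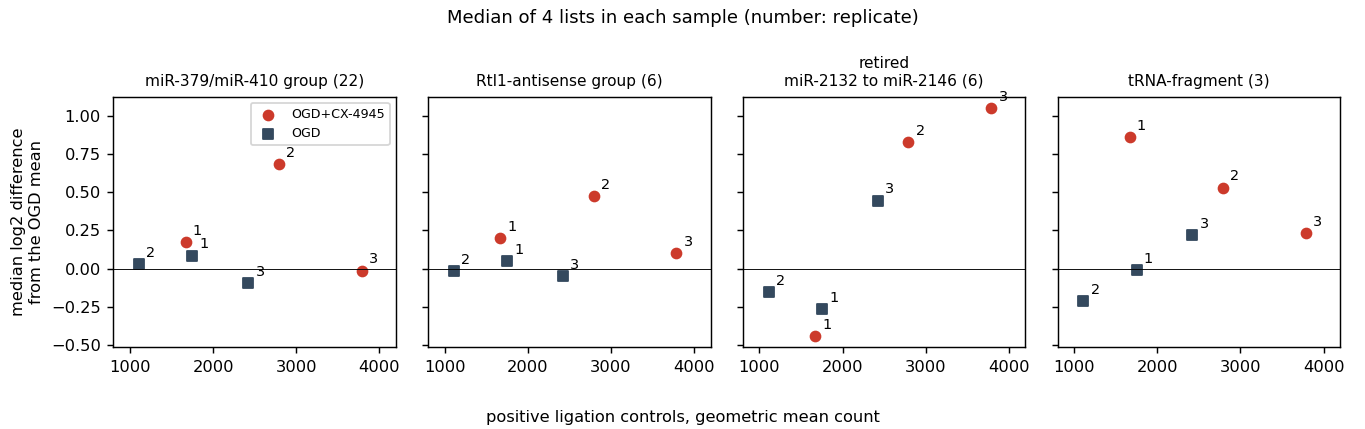
Median deviation of 4 lists in each sample against the ligation count. The y axis is the median log2 difference of a list's tested probes from their OGD mean, the x axis the geometric mean count of the positive ligation controls, and numbers beside points are replicates of OGD+CX-4945 (circles) and OGD (squares). The retired probes reach 0.83 and 1.05 in the 2 lanes with the highest ligation counts, and the miR-379/miR-410 group reaches 0.68 in OGD+CX-4945 replicate 2 alone.

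Under TMM, lists that mark cell types had medians between -0.18 and 0.31, and no member of them passed the test. In the processed values every tested member of these 7 lists had a higher mean, as did 214 of all 217 tested probes. Under ligation scaling 6 of 11 neuron probes, with a median of 0.002, and 1 of 3 erythroid probes had a higher mean. No tested member of the other cell-type lists did under that scaling, where 34 of all 217 tested probes did. All 6 oligodendrocyte probes were tested, 2 had a higher mean, and the median was -0.05. miR-338-3p had 20442, 17169.7 and 23173 with CX-4945, against 21806, 19872 and 21031 in OGD (log2 fold change -0.04, SE 0.12), and miR-219 had 7629, 9288 and 12022 with CX-4945, against 9795, 9903 and 13526 in OGD (log2 fold change -0.20, SE 0.21). Both overlapped. Of 12 neuron probes 11 were tested, 8 had a higher mean, and the median was 0.31. By sample their median deviation was 0.06, 0.58 and -0.06 with CX-4945 and -0.18, 0.16 and -0.03 in OGD, and leaving out OGD+CX-4945 replicate 2 gave a list median of 0.03, with 6 of 11 higher. miR-124, a neuronal miRNA, had 6938, 8113 and 8111 with CX-4945, against 7314, 8051 and 8091 in OGD, with overlap.

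Microglial and leukocyte probes, 7 of 9 tested, had a median of -0.04 with 3 higher, and endothelial and mural probes, 7 of 9 tested, had 0.01 with 4 higher. Muscle probes, 4 of 5 tested, had a median of -0.18, and their summed normalised counts were 295, 239 and 264 with CX-4945 and 287, 296 and 301 in OGD. Those of epithelium, retina and meninges, 4 of 12 tested, had a median of -0.11 and sums of 4852, 5405 and 5345 against 4952, 6166 and 5724. The 3 erythroid probes, markers of red cells, summed to 1234, 987 and 814 against 1099.5, 915 and 1095, with overlap. The part of these other cell types in the differences above was not tested. miR-210, induced by low oxygen, had 336, 304 and 457 with CX-4945, against 424, 369 and 388 in OGD (log2 fold change -0.11, SE 0.16), and overlapped.

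Set against the other drug, OGD+CX-4945 samples gave no called probe against OGD+MS-275. MS-275, or entinostat, inhibits class I histone deacetylases. edgeR called 0 of 217 probes (0%; lowest adjusted p = 0.920), with 9 at an unadjusted p under 0.05 (4.15%). DESeq2 and limma-voom also called 0, with 7 and 10 at that level. Scaled by the mRNA probes, miR-2134 was called (log2 fold change -1.50, edgeR adjusted p = 0.0499). Median log2 fold changes of OGD+MS-275 over the same OGD samples were 1.23 for the retired probes, 0.50 for the neuron list and 0.36 for the tRNA-fragment probes. They were 0.34 for the Rtl1-antisense group, 0.23 for the miR-379/miR-410 group and 0.03 over all tested probes. With CX-4945 these medians were 0.42, 0.31, 0.58, 0.28, 0.28 and 0.03, in the same order. miR-144, an erythroid miRNA, had 69.7, 53.8 and 66.4 with CX-4945, against 83.9, 111 and 83.7 with MS-275 (log2 fold change -0.55, SE 0.18), without overlap. let-7d had 21329, 15971 and 19715 with CX-4945, against 15487, 17117 and 15737 with MS-275 (log2 fold change 0.24, SE 0.12), with overlap. How many of all tested probes did not overlap between these drug groups was not counted, so the separation of miR-144 is only a description.

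Ligation counts differed between lanes, so each probe's slope on them was fitted within groups. Across the 217 probes the log2 fold change and this slope had Pearson r = 0.299 and Spearman rho = 0.311, a description of probes that share the same lanes and scaling. A slope with an adjusted p under 0.05 was found for 10 probes upward and 15 downward. Among the 14 with no overlap 0 had one, and among the 16 with an unadjusted p under 0.05 there were 2, miR-27a and miR-150. Slopes were positive, passing or not, for 9 of the 11 higher probes among the 16 and for 8 of the 10 higher probes with no overlap, against 119 of all 217. With ligation as a covariate 6 of the 16 kept an unadjusted p under 0.05. The mean ligation count was 2749 with OGD+CX-4945 and 1761 with OGD, so covariate and group cannot be fully told apart. The part of ligation in these differences was not tested. By sequence, the 63 matched probes ending in U had a median log2 fold change of 0.12 with 43 higher, and the 30 ending in A had -0.07 with 10 higher. The 33 ending in G had 0.01 with 17 higher, and the 17 ending in C had 0.01 with 9 higher. Probes ending in U include Dlk1-Dio3 miRNAs such as miR-127, miR-410 and miR-376a, and the part of the last base was not tested. GC content had r = -0.115 with the fold change over 143 probes.

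**Figure D5:**
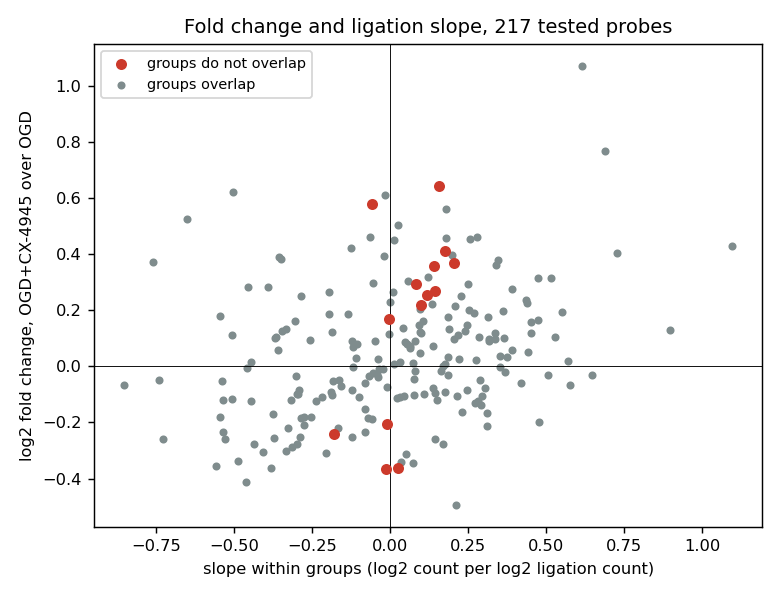
Log2 fold change and ligation slope of the tested probes. The x axis is the slope of log2 count on log2 ligation count within groups, the y axis the log2 fold change of OGD+CX-4945 over OGD, and red points are the 14 probes with no overlap. Over all points the relation is weak (r = 0.299).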

How the data were processed

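Small RNA of mouse optic nerve was counted on an nCounter miRNA panel in 12 lanes. Per the file headers, the main table holds deposited raw barcode counts, 1 lane per column. A second table holds the authors' processed signal, whose making is not given in the sources used here, so it served only as an alternative, tested with limma as the log2 of the deposited signal plus 1. Probes were tested when above the mean plus 2 SD of the 8 negative controls in at least 3 lanes; 1 row without a name was left out, and untested probes held 1.21% of the counts. edgeR 4.0.16 (R 4.3.3) ran quasi-likelihood tests with TMM factors and robust dispersion on all 12 lanes, adjusted by Benjamini-Hochberg over 217 probes at 0.05. The common biological coefficient of variation was 16.6%. Alternatives were DESeq2 1.42.0, limma-voom (limma 3.58.1), other scalings and filters, a ligation covariate and a block of title-number sets. Scripts were tested on simulated data. Members, lists and the rule for named miRNAs were chosen with earlier results of these data known. That rule took the 12 smallest p in each direction, all probes without overlap, the 5 most abundant, the most abundant and smallest-p member of each list, both arms of a hairpin, 7 chosen miRNAs, and the 3 smallest p in each direction against OGD+MS-275. Some lists are not reported here. Replicate numbers follow the order of the samples. In OGD+CX-4945, OGD and Control, replicates 1, 2 and 3 have title numbers beginning 107, 113 and 114. The labels do not say whether these sets mark a batch or a pairing.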

Additional observations from a re-analysis of the deposited data

How the results depend on the processing

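edgeR called 0 probes for OGD+CX-4945 against OGD under every alternative except without OGD+CX-4945 replicate 1, where it called miR-2133, so that leaving out 1 replicate gave 0 to 1. Against OGD+MS-275, 1 probe, miR-2134, was called with mRNA-probe scaling. Probes at an unadjusted p under 0.05 (16 as reported) numbered 7 with the 6 samples alone, 5 with ligation scaling, 6 with mRNA-probe scaling, 40 with no filter (566 probes tested), 9 with the replicate block and ligation covariate together, 7 in the processed values, and 5 to 31 leaving out 1 replicate. With the replicate block of title-number sets alone, 0 were called and 20 had an unadjusted p under 0.05. The main fit did not treat the sets as pairs because the labels name no pairing. Deviations of OGD+CX-4945 and OGD samples sharing a title-number set correlated at 0.294, -0.099 and 0.558. These values have no unmatched baseline beside them, so they cannot decide whether the sets are pairs. Log2 fold changes of the opposite sign were, in the processed values, 0.0262 for miR-362-3p, 0.0239 for miR-33, 0.0187 for miR-150, 0.141 for miR-532-5p and 0.181 for miR-191. With mRNA-probe and then positive-control scaling they were 0.00701 and 0.12 for miR-532-5p, and 0.0125 and 0.14 for miR-191. With ligation scaling they were -0.0438 for miR-369-3p, -0.00897 for miR-500, -0.0627 for miR-19a and -0.0999 for miR-434-5p. With the replicate block and ligation covariate they were 0.0263 for miR-27a, -0.00900 for miR-410, -0.075 for miR-376a and -0.0143 for miR-376b. The cause of these changes was not tested. miRNAs near background, such as miR-500, miR-221 and both arms of miR-423, are limited by signal over the negative controls.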
